A study of Homo sapiens with 4 samples.

Results

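Clusters outside annotated genes were the ADAR clusters and peaks whose midpoint lay in no RefSeq GRCh38 gene span. A gene span runs from a gene's first to its last annotated base, introns included. The mitochondrial genome and the part of chromosome 21 below position 11000000 were left out. The rule took 18577 of the 534161 clusters of replicate 1, 6005 of the 155848 clusters of replicate 2 and 65 of the 1717 peaks of the reproducible list. Positions and strands chose them, with no use of the enrichment values. The study mapped RNA bound by ADAR1 in K562, a human chronic myeloid leukaemia cell line that grows in suspension, by eCLIP (enhanced crosslinking and immunoprecipitation). Untreated cells were crosslinked with ultraviolet light, their RNA was partly digested with RNase I, and 2 immunoprecipitated (IP) libraries made with an antibody to ADAR1 were set against 2 input libraries made without it. No sample lacked ADAR1, and nothing in the labels says whether the replicates were separate cultures. The spread between them may therefore be technical.

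ADAR1 binds double-stranded RNA and converts adenosine to inosine within it. Such structures often form where repeats in opposite orientation, Alu elements above all, sit near each other in an unspliced transcript. RNA from outside annotated genes can come from polymerase that continues past a gene's 3′ end, from starts upstream of the annotated one, from antisense transcripts at promoters, and from transcription units that annotations lack.

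Sequence from the reference tables is shown for 4 places. In each, an enriched cluster (defined below) lay wholly or partly in the 250 bases before an annotated start. The 4 are shown because they are RNA from the promoter side of annotated starts, called enriched in 1 of the replicates each. Each is RefSeq sequence of GRCh38.p14, read 5′ to 3′ on the strand of the cluster, with the bases of the cluster in capitals. The first, chr21:45073742-45073991, lies before the start of LOC105372836, a long noncoding RNA (lncRNA) gene on the opposite strand. The next, chr21:45074328-45074577, ends at the start of ADARB1, which encodes the other catalytic ADAR enzyme. Its last 84 bases, in lower case, belong to a neighbouring enriched cluster that runs into the gene. The others are chr1:6613388-6613637, before the start of LOC107984913 on the same strand, and chr15:68820896-68821145. The latter is antisense to and before the start of ANP32A, a histone-binding protein. The chromosome 1 cluster also lies partly in the 250 bases before the start of PHF13, antisense to that gene.
LOC105372836, antisense: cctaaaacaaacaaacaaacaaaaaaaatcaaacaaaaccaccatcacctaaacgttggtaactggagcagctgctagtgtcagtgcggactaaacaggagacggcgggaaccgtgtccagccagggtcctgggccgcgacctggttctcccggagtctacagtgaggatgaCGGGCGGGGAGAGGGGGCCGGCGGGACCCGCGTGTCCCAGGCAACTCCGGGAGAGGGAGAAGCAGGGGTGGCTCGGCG
ADARB1, sense: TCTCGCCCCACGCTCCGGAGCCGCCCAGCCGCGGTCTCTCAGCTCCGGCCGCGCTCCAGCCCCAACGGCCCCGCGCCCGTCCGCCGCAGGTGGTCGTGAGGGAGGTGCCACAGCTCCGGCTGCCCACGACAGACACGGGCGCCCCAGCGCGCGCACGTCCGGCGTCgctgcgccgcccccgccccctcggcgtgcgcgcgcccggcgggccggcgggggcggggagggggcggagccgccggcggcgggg
LOC107984913, sense: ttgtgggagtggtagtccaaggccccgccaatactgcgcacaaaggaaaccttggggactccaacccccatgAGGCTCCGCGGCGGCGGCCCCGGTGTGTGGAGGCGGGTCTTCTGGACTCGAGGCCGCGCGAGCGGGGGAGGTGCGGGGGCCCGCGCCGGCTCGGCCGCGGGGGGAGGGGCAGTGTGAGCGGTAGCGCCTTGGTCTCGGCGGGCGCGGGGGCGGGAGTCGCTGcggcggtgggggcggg
ANP32A, antisense: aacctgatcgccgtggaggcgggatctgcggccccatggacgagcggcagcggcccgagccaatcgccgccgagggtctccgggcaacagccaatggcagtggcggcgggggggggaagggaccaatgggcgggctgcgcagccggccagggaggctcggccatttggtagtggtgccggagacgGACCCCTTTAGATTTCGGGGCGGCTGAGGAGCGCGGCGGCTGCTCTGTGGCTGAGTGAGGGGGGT
Their GC content was 59.6%, 83.6%, 75.2% and 71.2% in that order, beside a median of 58.7% over all 35116 promoter windows of the tables. The genome sequence of the other loci was not used here.

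Each deposited cluster or peak carries the authors' log2 fold of IP over input and a −log10 p, which serve below to describe, rank and filter. Enriched here means that the log2 fold and the −log10 p both reached 3. The folds lay on the steps that ratios of whole reads give, in 99.9% of replicate 1 and 99.7% of replicate 2, so the reads behind most enriched clusters could be worked out. For this the commonest fold was assumed to be 3 IP reads over 1 input read. On this basis the IP library held 3.33 times its input's reads in replicate 1 and 0.553 times in replicate 2. The replicates therefore reach a given fold with very different read numbers, and their levels are given side by side.

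Outside gene spans, 245 clusters of replicate 1 (1.32%) and 714 of replicate 2 (11.9%) were enriched. Among all clusters of the lists the shares were 1.39% and 12.8%, so both values lay near the background. The exact 95% binomial intervals ran from 1.16% to 1.49% and from 11.1% to 12.7%, and cover counting error only, since neighbouring clusters share transcripts. Inside gene spans 1.37% and 12.9% were enriched. Without the locus on chromosome 9 described below, the shares outside fell to 1.12% and 11.5%, in both replicates under those inside. Which side was higher in replicate 1 also turned with the threshold when that locus was kept. At a log2 fold of at least 4 the share outside was then 1.62 times that inside, and at the threshold used here 0.965 times. The median log2 fold was the same outside and inside, at 0.07 in replicate 1 and 1.85 in replicate 2.

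Enriched clusters outside genes rested on few input reads. In replicate 1 their median was 90 IP reads over 1 input read, and in replicate 2 it was 19 over 2. In replicate 1, 129 of the 244 with reads worked out (52.9%) stood at 1 input read, and in replicate 2, 226 of 708 (31.9%). The corresponding shares inside genes were 46.9% and 31.0%. Whether an input value of 1 stands for 1 read or for none cannot be told apart here, so the height of these folds is uncertain.

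The replicates shared a part of these clusters. In replicate 1, 118 of the 245 (48.2%, exact 95% interval 41.8% to 54.6%) were overlapped on the same strand by an enriched cluster of replicate 2, against 41.9% inside genes. In replicate 2, 102 of the 714 (14.3%) were overlapped by an enriched cluster of replicate 1, against 13.9% inside. Without the chromosome 9 locus these shares were 44.2% and 11.7%. Any cluster of the other replicate, enriched or not, overlapped 65.3% and 84.0%. Across 2908 overlapping pairs of clusters outside genes, Pearson's r of the log2 folds was 0.57 and Spearman's rho 0.52. The pairs share transcripts and libraries and give a description only.

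Position divided the clusters by the nearest gene. The distance is from the midpoint to the nearest end of a gene span, and a cluster over 10 kb from every gene was called isolated. Isolated clusters made up 9768 of replicate 1 and 2874 of replicate 2, and past the 3′ end of the nearest gene on its own strand lay 3204 and 1301. In replicate 1, 70 of these downstream clusters (2.18%, interval 1.71% to 2.75%) and 94 isolated clusters (0.962%, 0.778% to 1.18%) were enriched. In replicate 2 the values were 167 (12.8%, 11.1% to 14.8%) and 293 (10.2%, 9.11% to 11.4%). Downstream clusters thus had the higher share in both replicates, with intervals that overlapped in replicate 2. Without the chromosome 9 locus the downstream shares were 1.66% and 11.9%.

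The other positions held fewer clusters. Before the 5′ end of the nearest gene and on its strand, 24 of 1609 clusters of replicate 1 (1.49%) and 81 of 572 of replicate 2 (14.2%) were enriched. Before the 5′ end on the opposite strand, where promoter antisense RNA lies, the counts were 5 of 830 (0.602%) and 34 of 245 (13.9%). This antisense share was the lowest of replicate 1, and in replicate 2 its interval (9.81% to 18.8%) held the share over all clusters outside genes. Past a 3′ end on the opposite strand, 29 of 710 (4.08%) and 44 of 263 (16.7%) were enriched, and without the chromosome 9 locus 1.30% and 13.4%. The strand of the nearest gene was unknown for 2456 and 750 clusters, of which 0.936% and 12.7% were enriched.

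**Figure D1:**
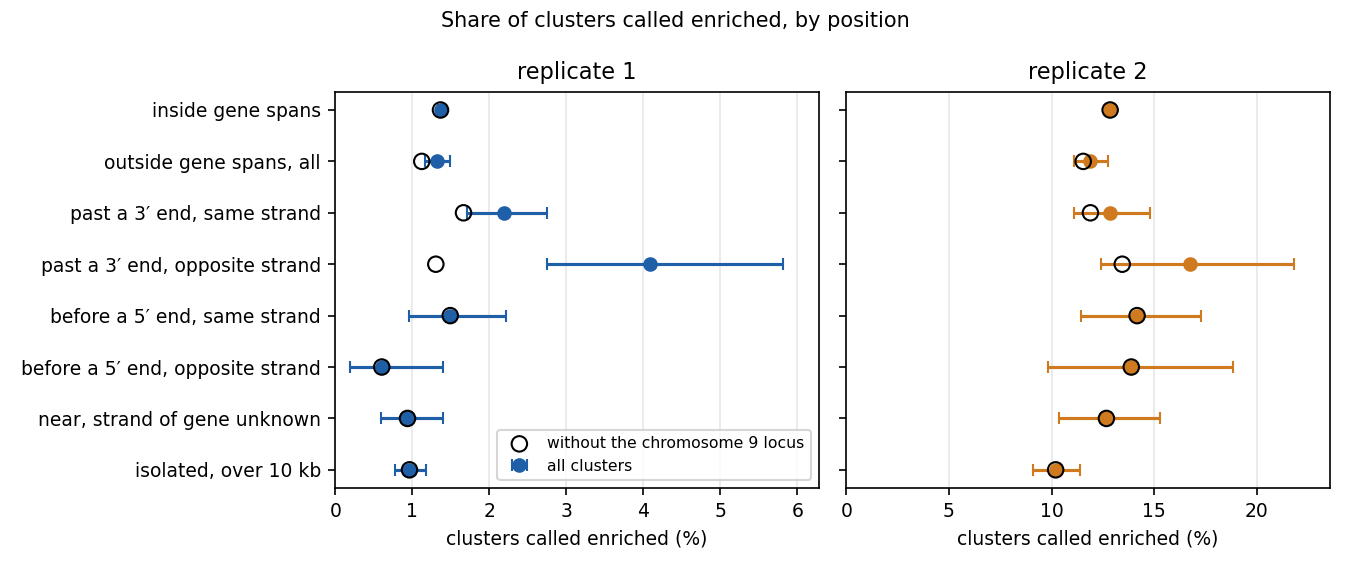
Share of clusters called enriched (x axis, percent) by position relative to the nearest gene (y axis) in replicate 1 (left) and replicate 2 (right), with exact 95% binomial intervals that cover counting error only. Open circles leave out the chromosome 9 locus, which takes the share past a 3′ end on the opposite strand from 4.08% to 1.30% in replicate 1.

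The nearest gene need not be the one that a transcript left. Counting instead every cluster with a same-strand gene end within 10 kb behind it, 102 of 4239 (2.41%) in replicate 1 and 223 of 1699 (13.1%) in replicate 2 were enriched. Among the remaining clusters 0.997% and 11.4% were. Without the chromosome 9 locus the former were 1.55% (interval 1.20% to 1.97%) and 11.9% (10.4% to 13.5%), so in replicate 2 the groups were then within counting error of each other.

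Clusters thinned out with distance past a gene's 3′ end. In replicate 1, 757 lay in the first kilobase on the gene's strand, 280 in the fifth and 132 in the tenth. On the opposite strand the counts were 148, 68 and 16. In replicate 2 the counts on the gene's strand were 336, 90 and 44. These counts leave out the chromosome 9 locus. The sense strand held more clusters than the antisense strand in each of the bins. The strand of some genes came from the clusters inside them, and the counts also depend on how far the next gene lies.

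**Figure D2:**
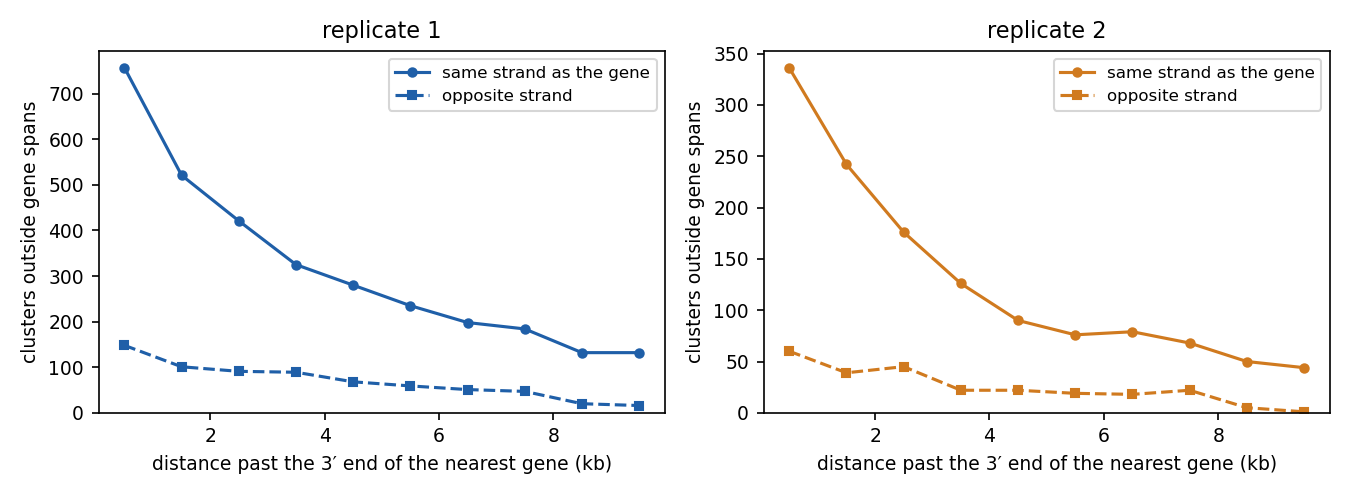
Clusters outside gene spans (y axis) by distance past the 3′ end of the nearest gene in 1 kb bins (x axis), on the gene's strand (solid) and opposite (dashed), without the chromosome 9 locus. In replicate 1 the sense counts decline from 757 in the first bin to 132 in the last.

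RNA between genes came from a single strand over long stretches. Of the 415 gaps between neighbouring genes that held at least 10 clusters, 398 had clusters on 1 strand alone, and 99.4% of the clusters in these gaps lay on the majority strand. A cluster on the opposite strand overlapped 10 clusters of replicate 1 (0.0538%) and 7 of replicate 2 (0.117%), against 0.226% and 0.266% inside gene spans. Among enriched clusters it overlapped 0 of 245, where the exact interval reaches 1.49%, and 2 of 714.

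Runs of at least 10 same-strand clusters with gaps of at most 10 kb, called tracts here, numbered 391 over both replicates. They held 77.2% of the clusters of replicate 1 and 79.4% of those of replicate 2, and 369 had clusters in both. Their median length was 17.2 kb and 27 ran over 100 kb. A same-strand gene end lay within 10 kb behind 213 of them, and within 1 kb behind 140. In tracts past a gene end 1.91% of the clusters of replicate 1 and 15.2% of those of replicate 2 were enriched, and in the 155 tracts that had no such end and contained no same-strand gene 0.978% and 11.8%. Without the chromosome 9 locus the former shares were 1.27% and 14.2%. Outside tracts 1.27% and 7.77% of the clusters were enriched.

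The tracts named here were chosen after their values were seen. The one with the most clusters, chr4:126498047-126735497 on the minus strand, spanned 237 kb and began 338279 bases past the nearest same-strand gene end. It held 469 clusters of replicate 1, of which 2 were enriched, and 161 of replicate 2, of which 9 were. The tract chr3:33957468-34158949 on the plus strand stopped 415 bases before the start of the lncRNA gene LINC01811, and 9 of its 393 and 9 of its 132 clusters were enriched. Another, chr5:104105757-104319587, began 305 bases past the 3′ end of the lncRNA gene NIHCOLE and ran on for 214 kb. Of its clusters 2 of 298 and 11 of 125 were enriched, and it held 2 reproducible peaks. In chr7:128533702-128626325, ahead of LINC01000, no cluster of 202 was enriched in replicate 1 and 19 of 87 were in replicate 2. Of these 4 tracts, 3 had an enriched share in replicate 2 below the 12.8% of the list, and that on chromosome 7 had a higher one.

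The 65 reproducible peaks fell into 22 loci, where peaks within 1 kb of each other on a strand form a locus. Of the peaks, 25 lay past the 3′ end of the nearest gene on its strand, and 21 were isolated. A further 13 lay past a 3′ end on the opposite strand, 5 near a gene of unknown strand and 1 before a 5′ end. Most of the 13 were peaks of the chromosome 9 locus, which also gave peaks to the 25. Its peaks among the 13 also lay 3381 to 6241 bases past LOC105379444, an lncRNA gene on their own strand. The median distance of the 65 peaks to a gene was 3229 bases, and 8532 over the 44 outside the chromosome 9 locus. For all clusters of the replicates it was 11404 and 8980. In 19 loci both replicates held an enriched cluster, and 10 loci had a single peak. A cluster of each replicate overlapped 62 of the peaks. The log2 folds of these clusters ran from 1.93 to 7.14 in replicate 1 (median 4.34) and from 3.23 to 8.86 in replicate 2 (median 5.51), and 50 were higher in replicate 2. Across the 62 peaks r between the replicates was 0.07 and rho 0.05. Within this chosen range the heights of the replicates thus did not follow each other. Some clusters stand under several peaks, and 21 of the 62 peaks lay at the chromosome 9 locus. These values and the count of 50 therefore give a description only.

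**Figure D3:**
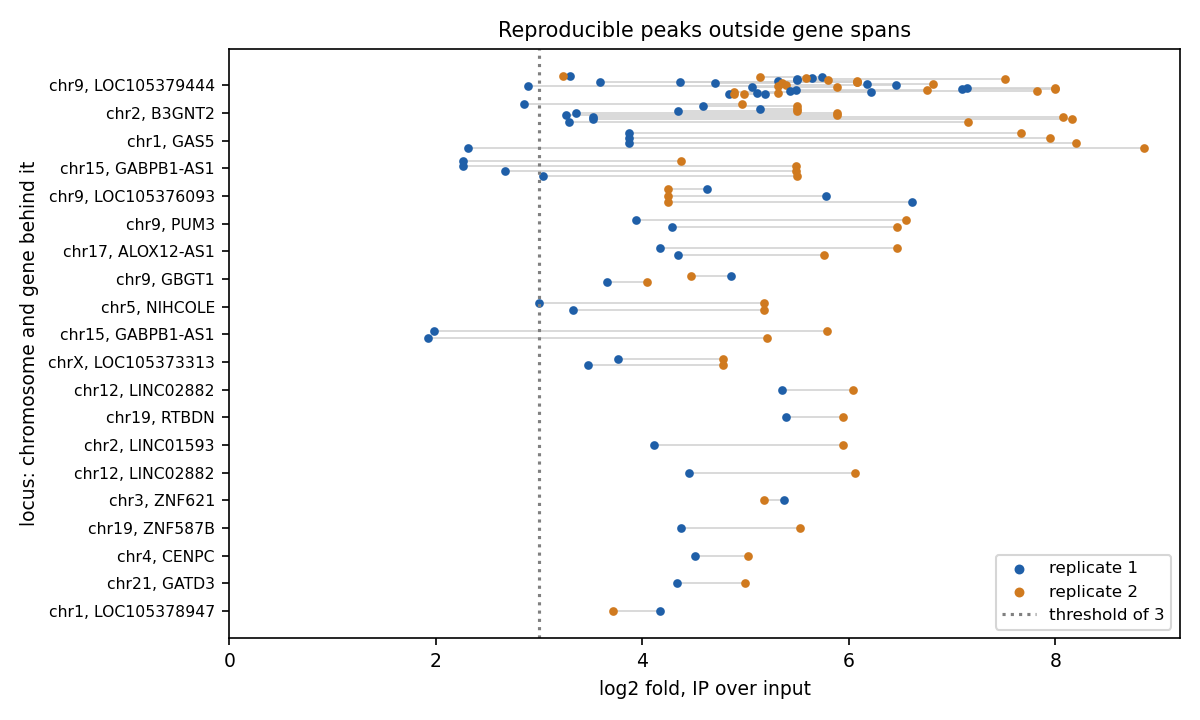
Log2 fold of IP over input (x axis) of the cluster of each replicate under each reproducible peak, by locus (y axis, chromosome and nearest protein-coding or lncRNA gene end behind it on the strand), for the 20 loci with clusters in both lists. Of 62 peaks, 50 are higher in replicate 2, with the widest gap, 2.31 against 8.86, at the GAS5 locus.

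The locus with the most peaks was chr9:65385728-65390640 on the plus strand, with 21 of the 65. It began 1377 bases past the 3′ end of LOC105379444, an lncRNA gene on the same strand, and ended 321 bases before LOC107987069 on the other. In replicate 1, 37 of its 39 clusters were enriched, up to a log2 fold of 7.14 from 470 IP reads over 1 input read. In replicate 2 all 24 were, from 3.23 upward, the highest from 425 over 3. Enriched clusters of both replicates were spread along its 4913 bases, and no cluster lay on the opposite strand. The highest reproducible peak outside genes, chr9:65388038-65388094, lay here at log2 7.59. The region beside the chromosome 9 centromere is known for segmental duplications, and whether reads here came from near-identical copies was not tested. It made up 15.1% of the enriched clusters outside genes in replicate 1 and 3.36% in replicate 2.

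**Figure D4:**
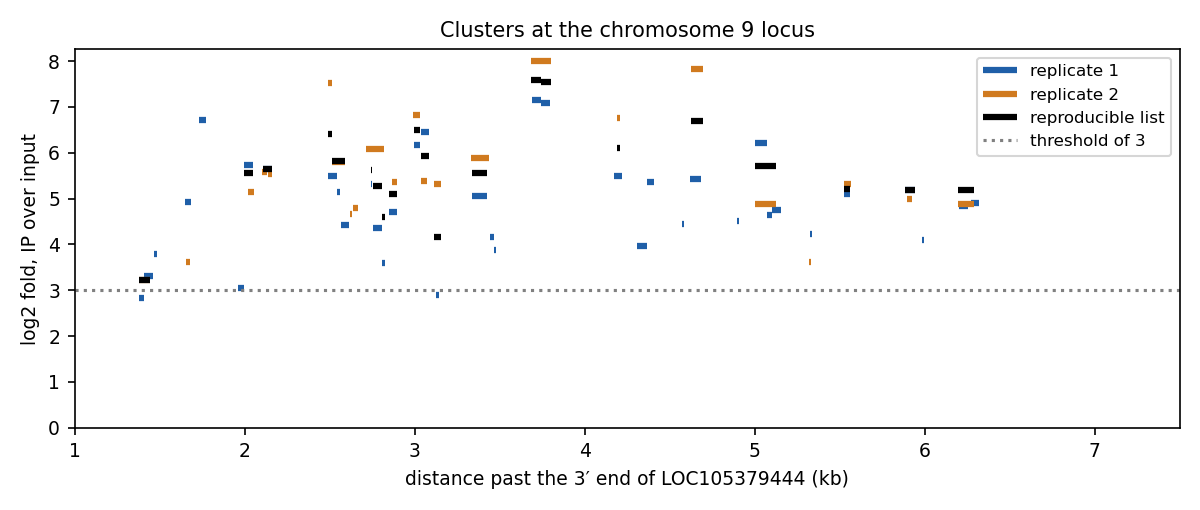
Log2 fold of IP over input (y axis) of each cluster and reproducible peak at the chromosome 9 locus by distance past the 3′ end of LOC105379444 (x axis, kb), with bar length the cluster's width. In replicate 2 every cluster is above the threshold of 3, and in replicate 1, 37 of 39 are.

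The next locus, chr2:62304878-62305782 on the plus strand, had 9 peaks and was isolated, 28032 bases from LOC105374761 and 80147 past the end of B3GNT2, a glycosyltransferase gene. In replicate 1, 7 of 11 clusters were enriched, with log2 folds from 2.07 to 5.14, the highest from 117 IP reads over 1. In replicate 2 all 9 were, from 4.85 to 8.17, the highest from 159 over 1. It lay in a tract of 118 kb, chr2:62296574-62414558, that ended 635 bases before LOC105374764 on the same strand. In that tract 8 of 187 and 24 of 89 clusters were enriched (4.28% and 27.0%), against 1.32% and 11.9% of all clusters outside genes.

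Past GAS5, a host gene of small nucleolar RNAs on chromosome 1, 4 peaks lay at chr1:173862612-173862688 on the minus strand, 1213 bases beyond its 3′ end. The nearest gene span was GAS5-AS1, 560 bases away, whose strand was unknown. In replicate 1, 2 clusters covered the place with log2 folds of 2.31 and 3.87, the latter from 243 IP reads over 5. In replicate 2 the 4 clusters ran from 7.67 to 8.86, the highest outside genes in that replicate, from 257 over 1. Across chr1:173861756-173863243, 12 of 13 clusters of replicate 2 were enriched and 1 of 2 of replicate 1. The replicates thus both held IP reads there, at folds that differed more than at the chromosome 9 locus. Past SNHG5, another such host gene, 2 of 7 clusters of replicate 1 and 3 of 6 of replicate 2 were enriched, up to 4.42 and 5.02.

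On chromosome 15 a pair of loci followed GABPB1-AS1, an antisense lncRNA gene, and the microRNA gene MIR4712 beyond it. The 2 peaks at chr15:50363462-50363511 lay 5150 bases past the end of GABPB1-AS1, and the 4 at chr15:50365770-50366919 lay 7458 past it. In replicate 1 the former had 3 clusters from 1.89 to 1.98, none enriched, and the latter had 8, of which 1 was enriched at 3.03. In replicate 2 their clusters were at 5.21 and 5.78 and between 3.85 and 5.50, all enriched. Of the 8 reproducible peaks whose replicate 1 cluster was under the threshold of 3, these loci held 5.

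Reproducible peaks past protein-coding genes were few. The nearest to a 3′ end was chr9:133152535-133152619, 329 bases past GBGT1, a glycosyltransferase gene, where 3 clusters of replicate 1 were at 3.61 to 4.86 and 2 of replicate 2 at 4.04 and 4.47. At chr19:57846589-57846682, 351 bases past the zinc finger gene ZNF587B, the folds were 4.37 (138 IP reads over 2) and 5.53 (51 over 2). At chr3:40542282-40542356, 2500 bases past ZNF621, another zinc finger gene, they were 5.37 (138 over 1) and 5.18 (40 over 2). These 3 loci had all their clusters enriched in both replicates.

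Others lay farther out. At chr21:44154674-44154757, 8963 bases past GATD3, the folds were 4.33 (67 over 1) and 5.00 (53 over 3). At chr9:2792656-2792812, 11340 past PUM3, a Pumilio-family RNA-binding protein gene, replicate 1 ran from 3.22 to 4.29 and replicate 2 from 5.38 to 6.55. At chr4:67453327-67453500, 15262 past CENPC, a centromere protein gene, they were 4.51 in replicate 1 and 4.61 and 5.02 in replicate 2. In each of these 3 cases a tract of same-strand clusters began within 1 kb of the gene's 3′ end (209, 986 and 997 bases), so RNA of the gene's strand was detected between the gene and the peak.

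Other reproducible peaks lay past lncRNA genes or antisense to coding genes. At chr9:76571726-76571838, 5998 bases past LOC105376093, 3 clusters of replicate 1 ran from 4.62 to 6.61 (325 IP reads over 1 at the top) and the 1 cluster of replicate 2 was at 4.25 (42 over 4), so this locus was higher in replicate 1. At chr12:74111965-74112086, 21087 past LINC02882, the top clusters were at 5.73 (176 over 1) and 6.04 (146 over 4), in a tract of the same strand that began 310 bases past that gene. At chr19:12804656-12804720, between THSD8 and RNASEH2A, which encodes the catalytic subunit of RNase H2, a single cluster in each replicate was at 5.40 (280 over 2) and 5.94 (34 over 1). It lay on the strand opposite to both genes. Further isolated loci also had enriched clusters in both replicates. At chr17:6910846-6910992 clusters were at 4.17 and 4.34 in replicate 1 and 6.47 and 5.76 in replicate 2. At chrX:114046434-114046500 they were at 3.76 and 3.48, and at 4.74 and 4.78. Single peaks at chr2:107706511-107706633 (4.11 and 5.94) and chr12:73934909-73935069 (4.46 and 6.06) lay in tracts. These tracts began 301087 and 191046 bases past the nearest same-strand gene end.

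A further 3 reproducible peaks had no overlapping cluster on their strand in either replicate list, 2 at chr11:62252198-62252222 (log2 5.00), between SCGB1D2 and SCGB2A2, and 1 at chr20:25863642-25863727 (log2 3.34). All 1608 reproducible peaks inside gene spans had one. The cause was not tested, and the counts of reproducible peaks include these 3.

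Other loci were enriched mainly in 1 replicate. Past ZNF460, a zinc finger gene, all 5 clusters of replicate 1 at chr19:57297848-57298206 were enriched from 4.02 to 4.84, up to 1427 IP reads over 15, the most among the enriched clusters outside genes whose reads could be worked out. Replicate 2 had 1 cluster there at 0.72, from 10 IP reads over 11. In replicate 2, 18 of 19 clusters at chr2:95829588-95831935 on the minus strand, 2607 bases before LINC00342, were enriched up to 5.55, and 0 of 10 in replicate 1, where the highest was 3.31. Over the whole tract there, chr2:95827620-95848755, 25 of 31 clusters of replicate 2 and 4 of 36 of replicate 1 were enriched, the latter up to 4.66. At chr12:9658602-9659672, 187 bases past the pseudogene LOC374443, all 8 clusters of replicate 2 were enriched and 0 of the 5 of replicate 1. So neither replicate's strongest loci were all shared by the other.

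The stretch before ADARB1, whose sequence is shown above, was of this kind. In replicate 1, 5 adjoining clusters over chr21:45073914-45074631 on the gene's strand had log2 folds of 4.12 (174 IP reads over 3), 4.03 (542 over 10), 4.30 (197 over 3), 3.03 (571 over 21) and 3.10 (285 over 10). In replicate 2 the 4 clusters there were at 1.31 (11 over 8), 0.72 (30 over 33), 0.81 (31 over 32) and 0.85 (18 over 18), none enriched. Every cluster of replicate 1 was above every cluster of replicate 2. The input reads were up to 21 in replicate 1 and 33 in replicate 2, more than at most loci, so the RNA itself was present in both. Past the annotated start replicate 1 had enriched clusters at 3.14, 3.46, 4.87 and 3.71, the last 512 bases in, then 1 at 2.64. Its clusters from 1585 bases on were at 0.59 or lower. Replicate 2 had 1.59 and 2.44 there.

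**Figure D5:**
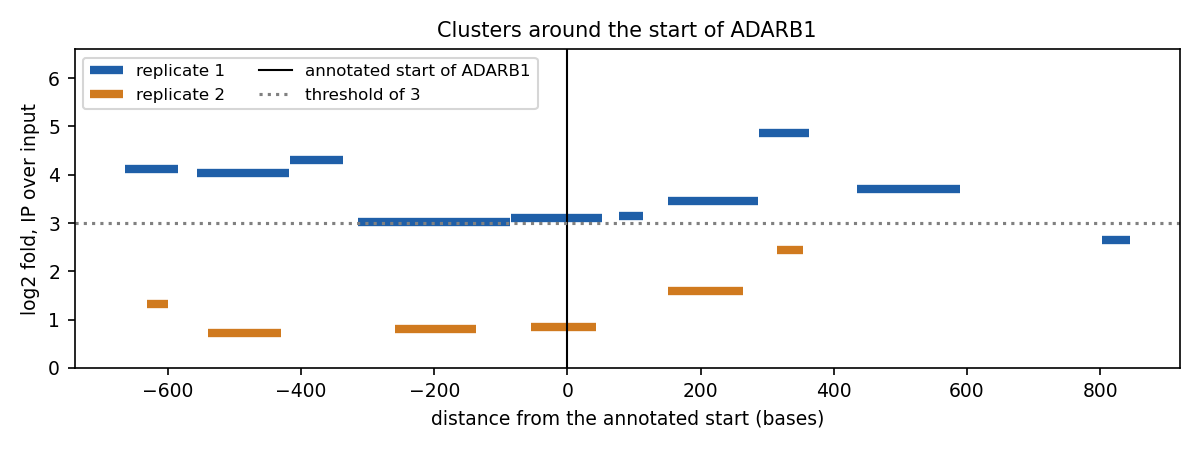
Log2 fold of IP over input (y axis) of plus-strand clusters around the annotated start of ADARB1 (x axis, distance in bases, negative before the start), with bar length the cluster's width. The 5 clusters of replicate 1 at or before the start are above the threshold of 3 and the 4 of replicate 2 are below it.

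The cluster before ANP32A was at 5.66 in replicate 2, from 28 IP reads over 1, and that before LOC107984913 at 3.31, from 22 over 4. The highest fold of replicate 1 outside genes, 8.41, was an 11-base cluster at chrX:141118022-141118032, 4 bases from RNU6-3P, a pseudogene of the U6 spliceosomal RNA, and was chosen after its value was seen. Replicate 2 held a cluster there at 3.66. U6 is known for many near-identical copies, and which of them these reads came from was not tested.

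By class of the nearest gene, at any distance, the enriched share was lowest for pseudogenes. In replicate 1 it was 1.46% of 4779 clusters nearest to protein-coding genes, 1.81% of 6943 nearest to lncRNA genes and 0.704% of 6111 nearest to pseudogenes. In replicate 2 it was 11.7% of 1744, 13.0% of 2180 and 10.2% of 1867. The chromosome 9 locus counts among the lncRNA genes, and without it their shares were 1.29% and 12.0%. That is under the share nearest to protein-coding genes in replicate 1 and above it in replicate 2. Of the 65 reproducible peaks, 44 were nearest to lncRNA genes, 9 to protein-coding genes and 4 to pseudogenes. The 44 included all 21 peaks of the chromosome 9 locus. Among all clusters outside genes, 6943 of 18577 in replicate 1 and 2180 of 6005 in replicate 2 were nearest to lncRNA genes.

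The clusters were also counted by whether their nearest gene, at any distance, was a listed gene known in K562 cells or a short gene. The lists as a whole had 1.39% and 12.8% enriched. Nearest to 12 globin genes lay 1 and 3 clusters, and nearest to 12 erythroid regulators 2 and 5, none of them enriched. None lay nearest to the 7 nuclear lncRNAs of the list. Near the 7 genes of the BCR-ABL1 fusion and its amplified region, all clusters followed EXOSC2, an RNA exosome subunit gene, with 0 of 8 enriched in replicate 1 and 4 of 8 in replicate 2, at 3.09, 3.55, 3.98 and 5.10, from 103 to 1236 bases past its 3′ end. Nearest to 95 replication-dependent histone genes 4 of 169 (2.37%) and 4 of 65 (6.15%) were enriched. Nearest to the genes of a small RNA list 14 of 1418 (0.987%) and 59 of 389 (15.2%) were. That list also held pseudogenes, so these shares are not those of small RNA genes alone. Among its pseudogenes, RNU6-3P had 1 enriched cluster in replicate 1 and RNU6-1056P had 5 in replicate 2. Some of the enriched clusters nearest to genes of the small RNA list were isolated. They lay up to 38875 bases from LOC124900490 in replicate 1 and 158767 from MIR3668 in replicate 2. Beside H2BC19P, a histone H2B pseudogene, both replicates were enriched, at 5.12 (116 IP reads over 1) and 3.49 in replicate 1 and 4.08 (28 over 3) in replicate 2.

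The edge of the rule also cut through transcripts. Within 100 bases outside a gene span, 8 of 342 clusters of replicate 1 and 14 of 79 of replicate 2 were enriched, with median log2 folds of 0.48 and 2.19. Within 100 bases inside, 78 of 4420 and 11 of 840 were, with medians of 0.59 and 0.27. Over all clusters the shares were 1.32% and 11.9% outside gene spans, and 1.37% and 12.9% inside. In replicate 1 both edges were above these shares. In replicate 2 the outer edge was above and the inner edge far under. The cause was not tested.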

How the data were processed

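ADAR eCLIP was measured in K562 cells in 2 IP and 2 input libraries. The authors deposited 3 lists of stranded clusters (replicate 1, replicate 2 and a reproducible list) with a log2 fold of IP over input and a −log10 p for each. No −log10 p exceeds 400. The submitters' processing notes name cutadapt 1.9, STAR 2.4.0i and the builds hg19, GRCh38 and hg38. Not given in the sources used here are the peak caller and how the reproducible list was made. The regions and the gene lists were chosen with earlier results of these data known.

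Positions were read as GRCh38, since clusters on chromosome 17 reach position 83224967, past its end in hg19. Midpoints were placed against 59716 RefSeq gene spans of GRCh38.p14. Gene strand came from the RefSeq promoter and microRNA tables or, failing that, from clusters inside the span (at least 5 clusters, at least 80% on 1 strand). Reads were worked out from the fold as a ratio of whole numbers and the p as a binomial or chi-square p, within 0.05 of the −log10 p. The procedure was run on simulated data built with the commonest fold at the assumed ratio and with binomial p alone. Those runs could not check that assumption or the chi-square p. Loci were named by rule: up to 20 loci with the most reproducible peaks, the 10 highest reproducible peaks, the 5 loci with the most enriched clusters of each replicate, and neighbours of listed genes. Genome sequence and depth per library were not used here. Python 3.11.15, pandas 2.3.3 and SciPy 1.17.1 were used. No test across groups was made. Other thresholds, windows and overlaps were tried, some added after the data were seen (without the chromosome 9 locus, and any same-strand gene end).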

Additional observations from a re-analysis of the deposited data

How the results depend on the processing

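Of 50 alternatives, 24 left a share or ratio within its counting error, a count or distance within 1.5 times or a median fold within the spread between replicates. Without the chromosome 9 locus the median distance of the reproducible peaks to a gene was 8532 bases in place of 3229. At a log2 fold of at least 4 the enriched clusters outside genes were 134 and 409, and at a −log10 p of at least 5 those of replicate 2 were 466. The ratio of the enriched share outside to inside genes was 0.965 in replicate 1. It was 0.802 at a log2 fold of at least 2, 1.62 at 4 and 1.13 at a −log10 p of at least 5. With at least 5 in the denominator of the fold it was 1.10, and without the chromosome 9 locus 0.821. So which side was higher turned with the threshold, with that locus kept at the other settings. In replicate 2 the ratio was 0.925, and 0.795 with that denominator. The downstream share of enriched clusters, 28.6% in replicate 1 and 167 of 714 in replicate 2, was 21.6% and 18.1% with a window of 5 kb, 18.0% and 12.9% with protein-coding genes alone and 41.6% and 31.2% with any same-strand gene end, and 28.2% in replicate 2 with 50 kb. Overlap by an enriched cluster was 11.8% of replicate 2 at an overlap of 50% and 11.7% without the chromosome 9 locus, and by any cluster 65.3% and 84.0%. The median log2 fold was 3.51 and 3.73 among clusters with a −log10 p of at least 3, and 0.53 in replicate 2 with a denominator of at least 5. In place of the 65 reproducible peaks, 1 replicate alone gave between 245 and 714 enriched clusters. No paired analysis was possible because the results come from no test: the deposited values already combine each IP with its input. A median of 19 IP reads lay behind the enriched clusters of replicate 2, so single loci there are weakly measured.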
